A study of Mus musculus with 4 samples.

Results

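The genes described here are 35 mouse genes grouped under amino acid and peptide absorption. They are 31 genes of carrier families, not all of which work at the gut surface, and 4 genes of brush border peptidases. They were chosen by symbol, and all 35 were found in both of the authors' deposited tables, which list 25522 and 26085 genes and share 24182. The RNA came from crypts of the small intestine, the pits of the gut lining that hold its stem cells, of 9-week-old male C57BL/6J mice. Animals were either fed or fasted for 24 h, and either had no tetracycline (an antibiotic) or had it for 21 days, which gives 4 groups with 1 labelled sample each. The series asks how tetracycline, used to deplete what its text abbreviates as AKK, bears on expression in fed and fasted mice. Crypts were freed by shaking with a calcium chelator and then split into single cells by trypsin. The labels do not give the number of animals behind a sample.

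Dietary protein is cut in the gut lumen and at the brush border, the layer of microvilli on absorptive cells, into free amino acids and very short peptides. Separate carriers on the luminal side bring in peptides together with protons, neutral amino acids together with sodium, and cystine and dibasic amino acids in exchange for neutral ones. Other carriers on the blood side release amino acids. Several carriers are pairs of a heavy chain, which brings the complex to the membrane, and a light chain, which transports. The luminal carriers and the brush border peptidases are mainly active in mature absorptive cells (enterocytes) of the villus, while some of the other carriers, such as Slc7a5 and Slc1a5, are known from growing cells.

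Each table holds the authors' own comparison of fasted with fed crypts, and the direction of its fold change is not written in it. Fasted over fed was taken as its direction, after the word order in the tables' names, and every direction below depends on that reading. Under it Pdk4, a kinase that restrains glucose oxidation and is known to rise with fasting, had in the authors' deposited tables a log2 fold change of 2.27 (SE 0.38) without tetracycline and 2.90 (SE 0.62) with it. The whole read counts of single libraries could be worked back from the deposited means and fold changes. They showed 2 fasted and 2 fed libraries per table where the labels list 1 sample per side, so libraries are given as single values. Recovered counts ran from 46472752 to 66501798 per library. Library 1 of a side has the larger size factor (the divisor that brings libraries to one scale), and a "normalized count" is a count after that division. Whether the libraries came from separate animals is not given, so the authors' p-values measure a spread that may be technical.

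One fasted library in each table stood apart in the genes of absorptive cells, and most members were highest in it. The summed normalized count of 14 enterocyte markers that are no amino acid genes was 2197211 and 1088852 in the fasted against 1005610 and 1442500 in fed ones without tetracycline. With tetracycline it was 674751 and 2358336 in the fasted against 1167041 and 1149430 in fed ones. Of these 14 markers, 10 were highest in fasted library 1 without tetracycline and 13 in fasted library 2 with tetracycline, and none was at 0 in any library. The list holds 16 genes, of which 2 (Apoa1 and Apoa4) lacked recovered counts and are not in the sums, and 2 (Fabp1 and Apob) were called higher in fasted crypts without tetracycline and 0 with it. The 35 members summed to 945100 and 391040 in the fasted against 418218 and 467823 in fed ones without tetracycline, and to 242615 and 1036212 in the fasted against 314174 and 347088 in fed ones with it. The part of the enterocyte share in these sums was not tested. In bulk RNA, more cells of a type and more RNA per cell cannot be told apart. All 10 stem cell and all 8 Paneth cell markers of the crypt were detected in every library, beside the enterocyte markers, and detection does not give the share of crypt and villus cells. The summed stem cell markers ran the other way in the fasted libraries, with 65655 and 85415 without and 105403 and 30923 with tetracycline. The authors' adjusted p called 6 of the 8 Paneth cell markers higher in fasted crypts without tetracycline (summed 585665 and 737121 in fasted against 370366 and 317051 in fed ones), and 3 of 10 proliferation, 4 of 9 lymphocyte, 3 of 8 stromal and 4 of 4 erythrocyte markers lower. With tetracycline none of the markers of these 5 lists was called. Of all tested genes, 1.06% were called higher and 1.22% lower without tetracycline, and 0.333% and 0.267% with it. In the other marker lists, 1 proximal, 1 distal, 1 goblet, 1 enteroendocrine and 1 myeloid marker were called lower without tetracycline, and 1 proximal and 1 pancreatic acinar marker with it. The 6 markers of the proximal small intestine, none at 0, summed to 139907 and 48469 in fasted against 65236 and 93453 in fed ones without tetracycline, and to 26066 and 93895 against 72589 and 80550 with it, so they were highest in the same fasted libraries as most members. The part of these cell types and of gut region in the members' changes was not tested.

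**Figure D1:**
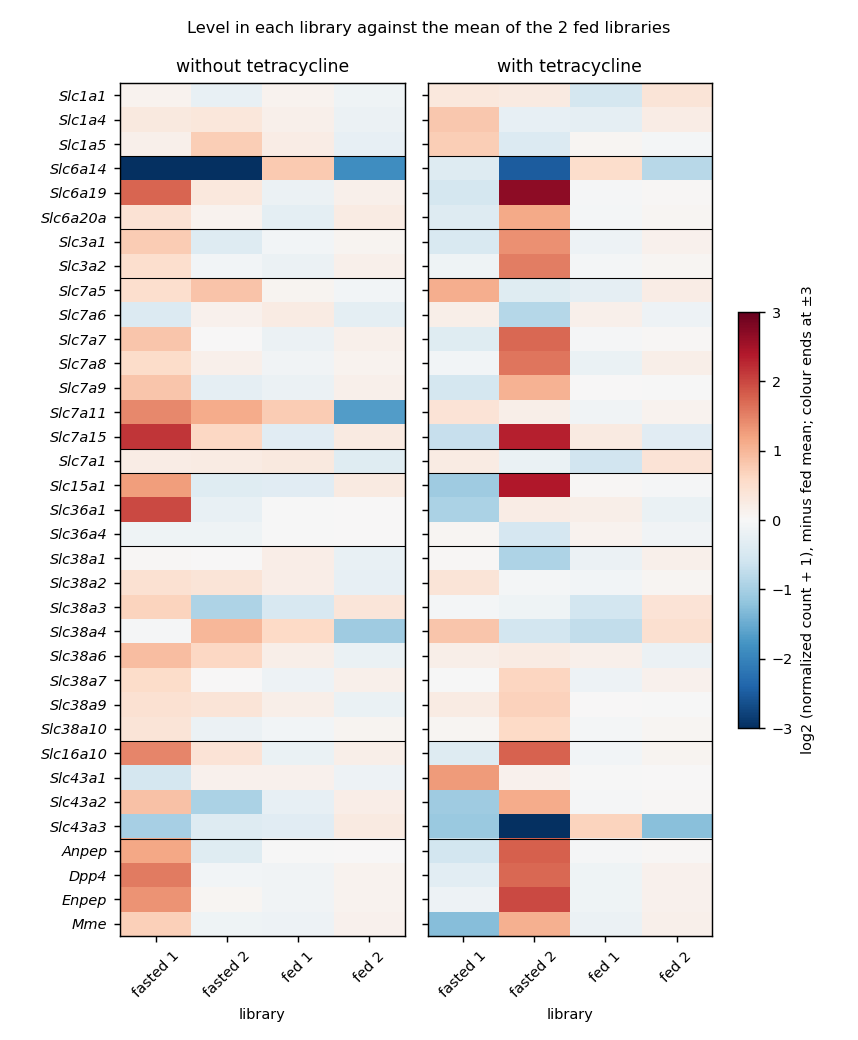
Colour shows the log2 of the normalized count (plus 1) of each of the 35 genes (rows, in role groups split by lines) in each of the 4 libraries of a table (columns), minus the log2 of the mean of the 2 fed libraries (plus 1). The peptidases and most luminal carriers are reddest in fasted library 1 without and fasted library 2 with tetracycline.

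Promoter sequence is shown for 4 members because each stands for one pattern in the data: Slc7a15, the only member called higher, Slc16a10, which was high in fasted crypts in both tables per enterocyte marker, Slc3a1, a heavy chain that was not called, and Slc7a11, a cystine carrier known as a target of ATF4, the transcription factor of amino acid shortage. Each run is the 250 bases before the gene's start in RefSeq on GRCm38.p6, written 5′ to 3′ on the gene's strand, with matches to 4 motifs in capitals on either strand. The motifs searched were GTTAAT (part of an HNF1 site), CAAAGT (the core of an HNF4 site), TTTATG (a CDX2 site) and TGATGNAA (the ATF4 composite site). Some of the capitals read as the reverse complement, namely ATTAAC for GTTAAT and CATAAA for TTTATG in Slc7a15, as does TTGCATCA for TGATGNAA in Slc7a11.
Slc7a15 (chr12:8599067-8599316, minus strand): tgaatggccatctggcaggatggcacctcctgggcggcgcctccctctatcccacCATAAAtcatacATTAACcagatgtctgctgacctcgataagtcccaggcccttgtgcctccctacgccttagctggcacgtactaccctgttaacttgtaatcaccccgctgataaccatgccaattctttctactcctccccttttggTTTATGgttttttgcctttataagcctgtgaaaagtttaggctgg
Slc16a10 (chr10:40142255-40142504, minus strand): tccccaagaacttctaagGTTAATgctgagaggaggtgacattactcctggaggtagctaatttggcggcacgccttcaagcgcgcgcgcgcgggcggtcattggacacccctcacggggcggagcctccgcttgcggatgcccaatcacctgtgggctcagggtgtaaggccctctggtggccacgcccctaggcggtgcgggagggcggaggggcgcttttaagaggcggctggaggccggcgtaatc
Slc3a1 (chr17:85028097-85028346, plus strand): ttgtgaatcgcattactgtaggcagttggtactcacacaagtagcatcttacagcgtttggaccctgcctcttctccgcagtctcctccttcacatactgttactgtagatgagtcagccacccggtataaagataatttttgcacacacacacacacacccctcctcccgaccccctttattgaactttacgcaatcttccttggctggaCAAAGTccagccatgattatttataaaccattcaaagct
Slc7a11 (chr3:50443614-50443863, minus strand): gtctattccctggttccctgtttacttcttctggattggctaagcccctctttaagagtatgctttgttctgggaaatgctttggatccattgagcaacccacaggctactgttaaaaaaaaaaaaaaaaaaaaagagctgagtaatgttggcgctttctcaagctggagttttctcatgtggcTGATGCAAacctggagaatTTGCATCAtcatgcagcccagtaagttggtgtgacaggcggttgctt

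The table of promoters held 43 windows for 30 of the 35 members, against 32851 windows in all. GTTAAT was present in 5 member windows (11.63%, against 6.43% of all windows), those of Slc16a10, Slc36a1, Slc6a20a, Slc7a15 and Slc7a7. CAAAGT was present in 4 member windows (9.3%, against 12.55%), and TTTATG in 1 (2.33%, against 10.76%). TGATGNAA was present in 3 member windows (6.98%, against 3.45%), from Slc7a11 and Slc7a7. These are matches of letters and not measured binding sites.

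Without tetracycline, fasting changed 2 of the 35 genes past the authors' threshold. Slc7a15, an aromatic-preferring light chain of the heteromeric carriers, rose, and Slc6a14, a broad carrier of neutral and cationic amino acids, fell. That is 1 member higher and 1 lower at an adjusted p under 0.05, against 1.06% of all tested genes higher and 1.22% lower (2.27% in either direction) in the authors' deposited table. At an unadjusted p under 0.05 there were 8 members, 7 of them higher, against 7.82% of all genes in either direction and 3.33% higher. The fold change was positive for 29 members and negative for 6, with a median of 0.37 on the log2 scale for the members and 0.02 for the 22803 genes whose mean is 1 or more, of which 51.7% were positive. Both fasted libraries lay above both fed ones for 10 members (28.6%, against 21.4% of all genes) and below them for 3 (against 21.1%), and for 22 the groups overlapped.

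With tetracycline no member was called. The smallest adjusted p of a member was 0.809 in the authors' deposited table from DESeq2, 2 members had an unadjusted p under 0.05, and 0.6% of all tested genes were called. Of these 2, 1 was higher, against 3.85% of all genes at an unadjusted p under 0.05 in either direction and 1.62% higher. The fold change was positive for 28 members and negative for 7, with a median of 0.38 for the members and -0.02 for the 23325 genes whose mean is 1 or more, of which 48.0% were positive. Both fasted libraries lay above both fed ones for 5 members (14.3%, against 15.8% of all genes) and below them for 0 (against 15.9%), and 30 overlapped. The median standard error of the members was 0.35 without and 0.60 with tetracycline.

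**Figure D2:**
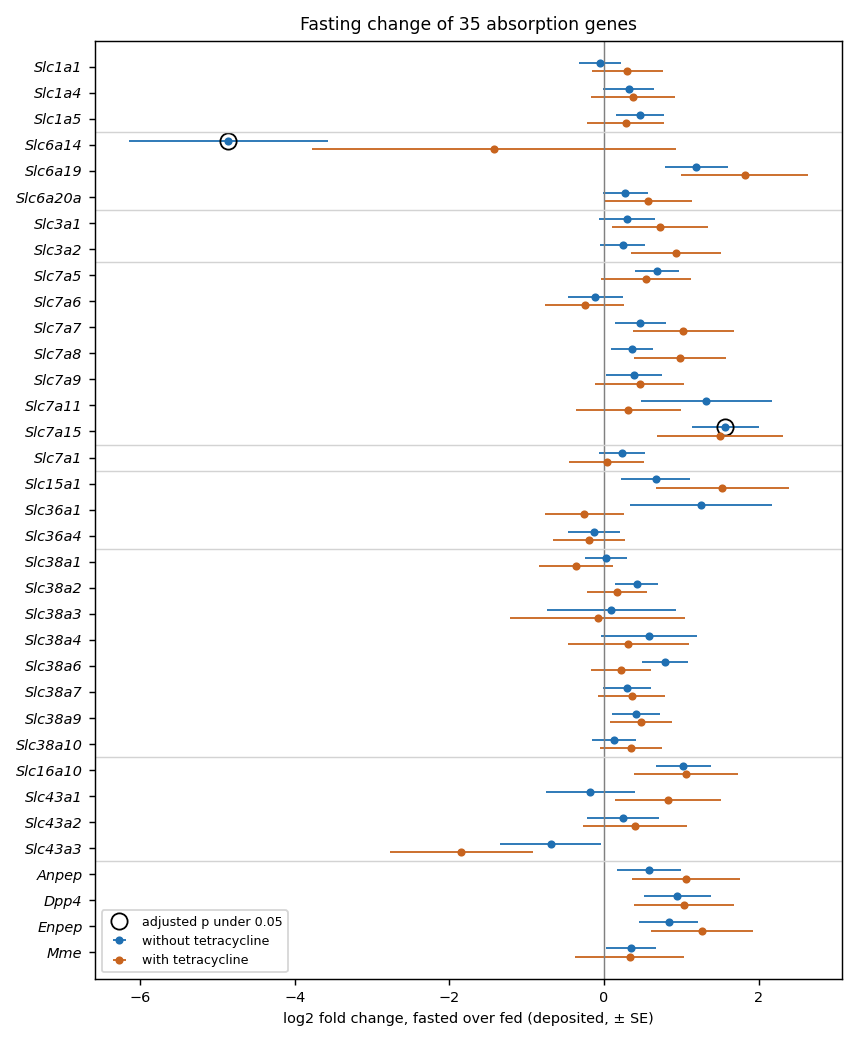
Points show the authors' deposited log2 fold change (fasted over fed, x axis) with its standard error for each of the 35 genes (y axis, in role groups), blue without and orange with tetracycline. Circles mark the 2 calls, Slc7a15 at 1.57 and Slc6a14 at -4.86, both without tetracycline.

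The members' median change rested on the library that stood apart. Without tetracycline, leaving out fasted library 1 brought the median from 0.37 to 0.02 with 20 of 35 members positive, and leaving out fasted library 2 brought it to 0.55 with 29 positive. For all genes whose mean is 50 or more, the same steps gave medians of -0.07 (43.4% positive) and -0.01 (48.8% positive). With tetracycline, leaving out fasted library 2 turned the median from 0.38 to -0.08 with 15 members positive, and leaving out fasted library 1 gave 0.62 with 23 positive. The medians over all genes were then -0.12 (39.9% positive) and 0.04 (53.0% positive). Fasted library 1 was the highest of the 4 libraries for 23 of 35 members without tetracycline, against 28.6% of genes of that level, and fasted library 2 for 20 of 35 with tetracycline, against 36.8%.

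**Figure D3:**
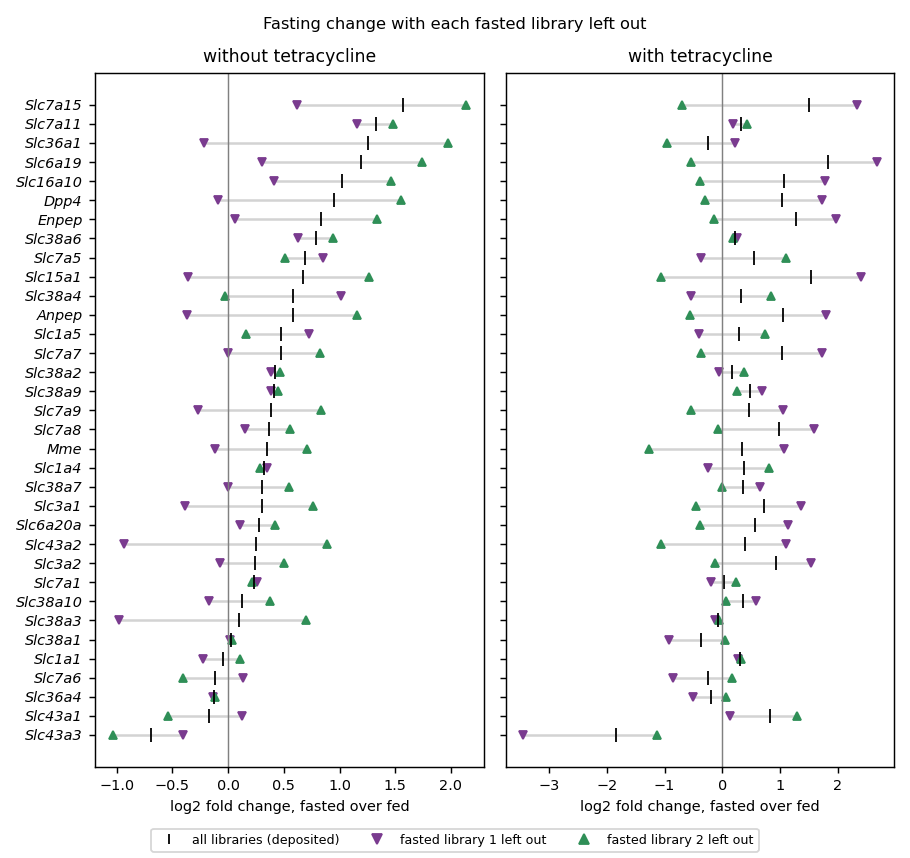
Each line is 1 of 34 genes (Slc6a14, with too few fasted counts, is not drawn), with the deposited log2 fold change (bar) and the change after leaving out fasted library 1 (down triangle) or fasted library 2 (up triangle); the x axis is log2 fasted over fed. Slc7a15 stays above 0 without tetracycline (0.62 and 2.14) and lies on either side of 0 with it (2.33 and -0.69).

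Among the 3 luminal Slc6 carriers, Slc6a19 had the highest mean count and the largest positive fold change in both tables. Per kilobase of joined annotated exons, Slc6a20a was the higher in fed crypts with tetracycline, at 2940 against 2781 for Slc6a19. Slc6a19 (chr13:73679745-73704865, GRCm38) encodes the main sodium-coupled importer of neutral amino acids at the brush border. Its normalized counts without tetracycline were 57842 and 21401 in fasted against 15251 and 19354 in fed ones, so the groups did not overlap. The authors' deposited table gave a log2 fold change of 1.20 (SE 0.41, unadjusted p 0.00327, adjusted p 0.10), which is not a call, and without fasted library 1 the change was 0.31. With tetracycline its normalized counts were 9583 and 88719 in fasted against 13626 and 14212 in fed ones. One fasted library was above and the other below both fed ones, and the deposited fold change was 1.82 (SE 0.83, unadjusted p 0.0274, adjusted p 0.809). Without fasted library 2 that change was -0.54.

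Slc6a20a, the imino acid carrier for proline, was not called and had log2 fold changes of 0.27 (SE 0.29) without and 0.57 (SE 0.57) with tetracycline. Leaving out fasted library 1 without tetracycline brought the change of Slc6a20a to 0.11, and leaving out fasted library 2 with tetracycline turned it to -0.40. Its count is uncertain, since 31.95% of its stretches of 31 bases also occur in other genes, most often in its near copy Slc6a20b, and 14.86% of its exon bases overlap Ccr9, Gm17120 or Gm17200 on the opposite strand.

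Slc6a14 (chrX:21714896-21742355) was close to absent from fasted crypts without tetracycline. Its raw counts were 2 and 1 in the fasted against 75 and 11 in fed ones. That is a rate 28.9 times as high in fed as in fasted libraries, with a 95% exact interval of 9.57 to 143 that covers counting error only. The authors' deposited table gave a log2 fold change of -4.86 (SE 1.28, adjusted p 0.0108). The 2 fed libraries differed widely, and fed library 1 held most of the counts. With tetracycline the raw counts were 4 and 0 in fasted against 9 and 2 in fed ones, a rate 2.43 times as high in fed ones (95% exact interval 0.720 to 10.5). The authors gave no adjusted p for it there, so it could not enter the test of the difference.

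The heavy chains did not pass the test in either table. Slc3a1, the partner of the cystine carrier Slc7a9, had log2 fold changes of 0.30 (SE 0.36) and 0.72 (SE 0.62), and Slc3a2, the partner of the blood-side light chains, 0.24 (SE 0.30) and 0.93 (SE 0.58), without and with tetracycline. Leaving out fasted library 1 without tetracycline turned Slc3a1 to -0.39 and Slc3a2 to -0.07, and leaving out fasted library 2 with tetracycline turned them to -0.46 and -0.12. For Slc3a1, 25.48% of its 31-base stretches also occur in other genes, most often in Prepl, an overlapping gene on the opposite strand, and the library kit did not keep the strand.

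Of the 7 light chains, 6 had a positive fold change in each table, with medians of 0.47 without and 0.54 with tetracycline, and 1 was called. Slc7a15 (chr12:8528483-8599066) had normalized counts of 8052 and 2807 in fasted against 1440 and 2223 in fed ones without tetracycline. Both fasted libraries were above both fed ones, fasted library 1 by far. The authors' deposited table gave a log2 fold change of 1.57 (SE 0.43, adjusted p 0.0185). Leaving out fasted library 1 brought that change to 0.62, and leaving out fed library 1 to 1.29. With tetracycline its counts were 1228 and 9986 in fasted against 2403 and 1562 in fed ones, so 1 fasted library lay below both fed ones. The deposited change there was 1.50 (SE 0.81, adjusted p 0.99).

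Slc7a5 (chr8:121881150-121907694), the light chain for large neutral amino acids that is typical of growing cells, showed another order of the libraries. Its normalized counts without tetracycline were 983 and 1245 in fasted against 735 and 649 in fed ones, so the groups did not overlap and fasted library 2 was the higher. The deposited log2 fold change was 0.69 (SE 0.29, unadjusted p 0.0162, adjusted p 0.268 from the authors' deposited table). With tetracycline the counts were 1494 and 541 in fasted against 579 and 820 in fed ones, and fasted library 1 was the highest. Slc7a5 thus ran opposite to Slc6a19 between the 2 fasted libraries of both tables. The deposited change with tetracycline was 0.54 (SE 0.58), and without fasted library 1 it was -0.37.

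The blood-side light chains Slc7a7 and Slc7a8, which export dibasic and neutral amino acids, had log2 fold changes of 0.47 (SE 0.33) and 0.37 (SE 0.27) without and 1.03 (SE 0.66) and 0.99 (SE 0.60) with tetracycline. Leaving out fasted library 1 without tetracycline brought Slc7a7 to 0.00 and Slc7a8 to 0.15, and leaving out fasted library 2 with tetracycline turned them to -0.37 and -0.08. Slc7a9, the cystine and dibasic light chain, had 0.38 (SE 0.36) and 0.46 (SE 0.57). Slc7a6 was the light chain with a negative value in both tables, -0.11 (SE 0.35) and -0.25 (SE 0.52). Slc7a11, the cystine and glutamate exchanger, was scarce, with normalized counts of 51.4 and 40.9 in fasted against 31.8 and 5.02 in fed ones without tetracycline, and 46.9 and 39.9 in fasted against 32.3 and 37.8 in fed ones with it. None of these passed the test. Slc7a1, the cationic carrier that works without a heavy chain, had 0.23 (SE 0.30) and 0.03 (SE 0.49).

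The proton-coupled carriers were not called in either table. Slc15a1, the importer of di- and tripeptides, had normalized counts of 37650 and 12186 in fasted against 12307 and 19029 in fed ones without tetracycline, and 4904 and 54580 in fasted against 10505 and 10072 in fed ones with it. In each table, a single fasted library was above and the other below both fed ones. The log2 fold changes were 0.67 (SE 0.44) and 1.53 (SE 0.86). Slc36a1, a carrier of small neutral amino acids such as glycine and proline, had 13348 and 2933 in fasted against 3389 and 3428 in fed ones without tetracycline. With it the counts were 1653 and 3724 in fasted against 3635 and 2772 in fed ones. Fasted library 1 without tetracycline was the only high one of the 8, and it held 82.0% of the fasted total. Slc36a4, a relative, had -0.13 (SE 0.33) and -0.19 (SE 0.46).

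The 8 members of the Slc38 family, sodium-coupled carriers of glutamine and other neutral amino acids and their lysosomal relatives, had log2 fold changes from 0.03 to 0.79 without and from -0.36 to 0.48 with tetracycline, and none was called. Slc38a6 (chr12:73286779-73354049), a less characterized relative, had normalized counts of 1004 and 808 in fasted against 593 and 455 in fed ones without tetracycline. Its groups did not overlap, and the change was 0.79 (SE 0.30, unadjusted p 0.00908, adjusted p 0.192 from the authors' deposited table). With tetracycline the values were 825 and 865 in fasted against 810 and 646 in fed ones, again without overlap but by a narrow margin, with a change of 0.22 (SE 0.39). For Slc38a6, 40.72% of 31-base stretches are shared with other genes, so its counts are uncertain.

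Slc38a9, the lysosomal arginine sensor of the growth regulator mTORC1, had normalized counts of 531 and 508 in fasted against 441 and 339 in fed ones without tetracycline, and 573 and 773 in fasted against 490 and 475 in fed ones with it. Both fasted libraries were higher in each table. Slc38a6, Slc38a9 and Slc7a11 were the 3 members whose fasted libraries lay above the fed ones in both tables, against 6.15% of all genes. Leaving out either fasted library gave changes of Slc38a9 between 0.38 and 0.45 without and 0.25 and 0.68 with tetracycline. Their sign was fixed in advance by the order of the libraries, so it adds no support.

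Among the 4 facilitative and aromatic carriers, Slc16a10 had the largest positive log2 fold change in both tables, though it was not called. Slc16a10 (chr10:40033532-40142258) carries aromatic amino acids across the basolateral membrane by facilitated diffusion. Its normalized counts without tetracycline were 26132 and 12619 in fasted against 8306 and 10722 in fed ones, with no overlap. The deposited log2 fold change was 1.03 (SE 0.36, unadjusted p 0.00408, adjusted p 0.117 from the authors' deposited table). With tetracycline the counts were 6539 and 29363 in fasted against 8128 and 9072 in fed ones, so the groups overlapped, and the change was 1.06 (SE 0.67). Leaving out fasted library 1 without tetracycline brought the change to 0.41, and leaving out fasted library 2 with tetracycline turned it to -0.40.

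Slc43a2, a basolateral carrier of large neutral amino acids, had 0.25 (SE 0.46) and 0.40 (SE 0.67). Slc43a1, its relative, had -0.18 (SE 0.57) and 0.83 (SE 0.69). Slc43a3 (chr2:84936579-84958509), a family member known to carry purine bases, went the other way from most members. Its normalized counts were 22.9 and 35.5 in fasted against 36.7 and 57.3 in fed ones without tetracycline, and 61.7 and 12.4 in fasted against 213 and 56.1 in fed ones with it. The log2 fold changes were -0.69 (SE 0.65) and -1.85 (SE 0.93, unadjusted p 0.0459, adjusted p 0.927 from the authors' deposited table). With tetracycline the change was -3.44 without fasted library 1 and -0.60 without fed library 1. The summed normalized count of 9 lymphocyte markers, none at 0 in any library, had the same order: 20184 and 3328 in fasted against 61234 and 15995 in fed ones with tetracycline, and 6161 and 12124 in fasted against 14586 and 18767 in fed ones without. The 8 stromal markers, none at 0 either, had this order too, with 2056 and 762 in fasted against 3766 and 1539 in fed ones with tetracycline, and 769 and 1475 against 1582 and 2954 without. The myeloid and erythrocyte markers had this order without but not with tetracycline, and the endothelial ones with but not without it. With tetracycline the myeloid sum was 3433 in fasted library 1 and 3478 in fed library 2, and the erythrocyte sums there were 72826 and 87095. Without it the endothelial sum was highest in fasted library 2, at 451. The part of these cell types in the value of Slc43a3 was not tested.

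The 3 carriers of the Slc1 family, which take up glutamate (Slc1a1) or small neutral amino acids (Slc1a4 and Slc1a5), had log2 fold changes from -0.05 to 0.47 without and from 0.28 to 0.38 with tetracycline, and none was called. For Slc1a1, 31.51% of 31-base stretches are shared with other genes, most often with 4430402I18Rik on the opposite strand.

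All 4 brush border peptidases had a positive fold change in both tables, with medians of 0.71 without and 1.05 with tetracycline, and none was called. Anpep, aminopeptidase N, had the highest level of all members per kilobase of a gene's joined annotated exons, which can be longer than its transcripts. This was 48478 normalized counts per kilobase in fed crypts without tetracycline, against 6619 for Enpep, 4225 for Slc3a1, 3964 for Slc3a2, 3456 for Slc6a19 and 1.32 for Slc7a11, the lowest. Its normalized counts were 445468 and 155052 in fasted against 197274 and 203637 in fed ones without tetracycline, and 86818 and 444135 in fasted against 124461 and 130680 in fed ones with it. One fasted library was above and the other below both fed ones in each table.

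Dpp4 (chr2:62330073-62412231), which removes dipeptides ending in proline, had 53586 and 17188 in fasted against 17014 and 19664 in fed ones without tetracycline, and 10238 and 41786 in fasted against 11499 and 13849 in fed ones with it. The deposited log2 fold changes were 0.95 (SE 0.43, unadjusted p 0.0275, adjusted p 0.349 from the authors' deposited table) and 1.04 (SE 0.65). Leaving out fasted library 1 without tetracycline brought its change to -0.09, and leaving out fasted library 2 with tetracycline to -0.31. Enpep (chr3:129269175-129332720), aminopeptidase A, which removes acidic residues, had 78700 and 32533 in fasted against 28748 and 33554 in fed ones without tetracycline, and 19312 and 83391 in fasted against 19341 and 23246 in fed ones with it. Its changes were 0.84 (SE 0.38, unadjusted p 0.0282, adjusted p 0.352 from the authors' deposited table) and 1.27 (SE 0.66). The change of Enpep was 0.06 without fasted library 1 in the table without tetracycline, and -0.14 without fasted library 2 in the table with it. Mme, neprilysin, had 0.35 (SE 0.32) and 0.33 (SE 0.70). Leaving out fasted library 1 without and fasted library 2 with tetracycline turned Anpep to -0.37 and -0.56, Mme to -0.12 and -1.27, Slc15a1 to -0.36 and -1.07, Slc43a2 to -0.94 and -1.06, and Slc7a9 to -0.27 and -0.54.

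**Figure D4:**
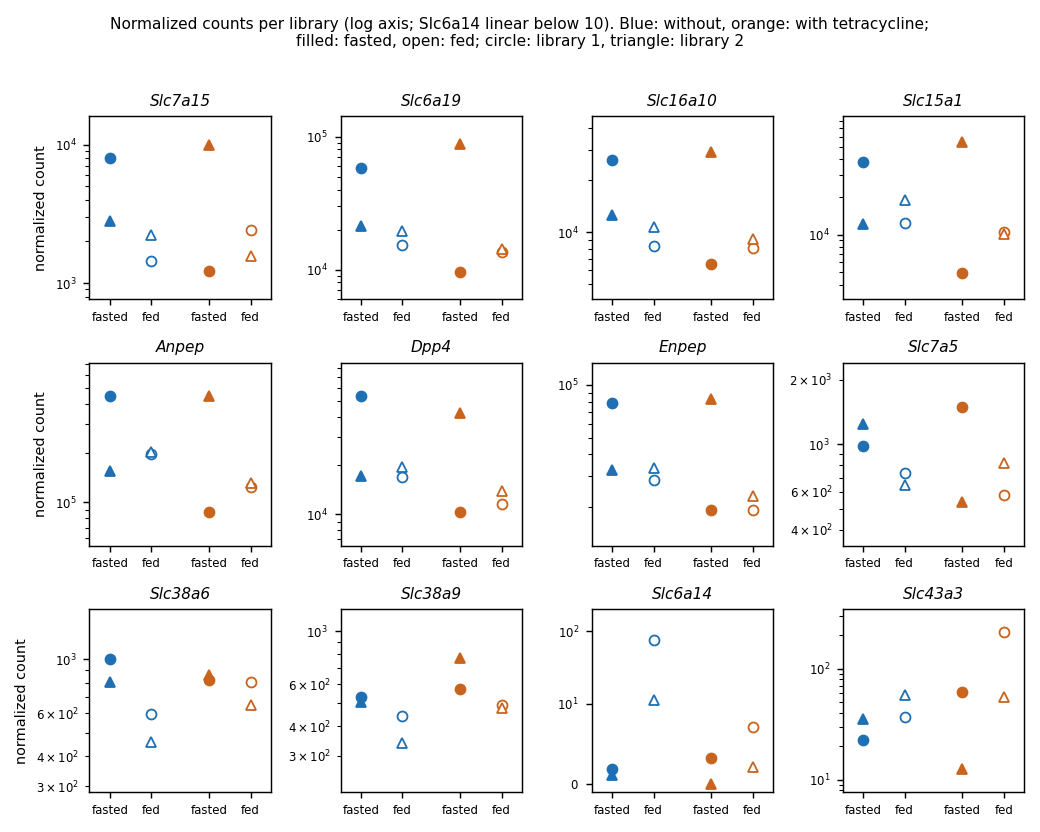
Normalized counts (y axis, log scale; linear below 10 for Slc6a14) of 12 genes in each library, blue without and orange with tetracycline, filled for fasted and open for fed, circles for library 1 and triangles for library 2. Slc7a15, Slc6a19, Slc16a10, Slc15a1 and the 3 peptidases drawn are highest in fasted library 1 without and fasted library 2 with tetracycline, while Slc7a5 has its highest tetracycline value, 1494, in the fasted library where those genes are low.

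Set against the enterocyte markers of the same library, a scaling chosen after the data had been seen, fewer members lay higher in fasted crypts without tetracycline and more with it. The summed markers include Fabp1 and Apob, which were themselves called higher in fasted crypts without tetracycline. The scaled values are therefore not levels corrected for the share of enterocytes. The members' median change became 0.00 without tetracycline, with 18 of 35 positive, and 0.46 with it, with 30 positive. The same scaling moved the median for all genes whose mean is 1 or more to -0.28 and 0.11. Both fasted libraries lay above both fed ones for 4 members without tetracycline (against 5.53% of all genes) and for 11 with it (against 5.2%). They lay below for 2 members (against 20.6%) and 0 members (against 7.78%). Slc6a19, Slc16a10 and Enpep were higher in both tables, against 1.21% of all genes.

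Per 1000 enterocyte marker counts, Slc6a19 had 26.3 and 19.7 in fasted against 15.2 and 13.4 in fed ones without tetracycline, and 14.2 and 37.6 in fasted against 11.7 and 12.4 in fed ones with it. Slc16a10 had 11.9 and 11.6 in fasted against 8.26 and 7.43 in fed ones without, and 9.69 and 12.5 in fasted against 6.96 and 7.89 in fed ones with tetracycline. Without tetracycline the 2 fasted values of Slc16a10 were thus close together, and with it they lay further apart. Slc7a15 had 3.66 and 2.58 in fasted against 1.43 and 1.54 in fed ones without tetracycline, and 1.82 and 4.23 in fasted against 2.06 and 1.36 in fed ones with it, where the groups overlapped. These values carry no test.

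The fasting change was not shown to differ between mice with and without tetracycline for any member. In the two-sided Wald test of the difference of the 2 deposited log2 changes, adjusted by Benjamini-Hochberg over 17571 genes, 0 of the 34 members that could be tested were called, against 0.0228% of all genes. At an unadjusted p under 0.05 there were also 0 members, against 1.05% of all genes, and with the statistic divided by its robust spread 0 were called. The smallest unadjusted p was 0.153, for Slc36a1 (change with minus change without tetracycline -1.51, SE 1.06). The median difference over the members was 0.06, and the sign of the change was the same in both tables for 30 members, 26 of them positive in both.

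Levels with and without tetracycline cross 2 separately scaled tables, so the values below are centred on the median of all genes and carry no test. In fed crypts the members' median log2 ratio of tetracycline over none was -0.21, with 12 members higher and 23 lower. Those past 1 in either direction were Slc6a14 (-3.03), Slc43a3 (1.44) and Slc38a3 (-1.09), all 3 with low counts. In fasted crypts the median was -0.07, with 12 higher and 23 lower, and those past 1 were Slc36a1 (-1.66) and Slc38a3 (-1.26). The value for Slc36a1 compares means of which 1 holds the single high library described above.

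Other genes of amino acid handling were taken from lists written together with the member groups, with earlier results of these data known. Of 29 other plasma membrane carriers, 22 were in the table without tetracycline and 17 had an adjusted p there. Of these 4 were called, all higher in fasted crypts (against 1.06% of all tested genes), and the list's median change was 0.41. The 4 were Slc15a2, Slc6a18, Slc6a7 and Slc7a2. Slc15a2, the high-affinity peptide carrier best known from the kidney, had normalized counts of 433 and 617 in fasted against 69.5 and 91.4 in fed ones, with a log2 fold change of 2.71 (SE 0.36, adjusted p 1.18e-10 from the authors' deposited table). Both fasted libraries were well above both fed ones. With tetracycline it had 142 and 96.3 in fasted against 413 and 65.8 in fed ones, and a change of -1.01 (SE 0.82). The difference between the changes was -3.72 (SE 0.90), with an unadjusted Wald p of 3.3e-05 and an adjusted p of 0.0966, which is not a call.

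Slc6a18, a glycine carrier and close relative of Slc6a19, had 234 and 59.1 in fasted against 28.8 and 12.1 in fed ones without tetracycline, a change of 2.84 (SE 0.69, adjusted p 0.00377 from the authors' deposited table). Slc6a7, a proline carrier, had 322 and 430 against 159 and 59.3, a change of 1.79 (SE 0.46, adjusted p 0.00901 from the authors' deposited table). Slc7a2, a cationic carrier, had 404 and 719 against 256 and 157, a change of 1.44 (SE 0.40, adjusted p 0.0176 from the authors' deposited table). In these 3 genes too the fasted and fed libraries did not overlap. As for Slc15a2, the call on the same libraries makes that order likely in advance. Of all genes, 21.4% had both fasted libraries above both fed ones without tetracycline. With tetracycline 0 of the 16 carriers of this list with an adjusted p were called, with a median change of 0.07, and Slc6a18, Slc6a7 and Slc7a2 had 3.44 (SE 1.12), 1.31 (SE 0.44) and 1.25 (SE 0.56).

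The lists of peptide breakdown held no call. Of the 11 other brush border and luminal peptidases with an adjusted p, 0 were called in either table. The median changes of the list's genes were 0.47 without and 0.93 with tetracycline. Their summed normalized counts were 403153 and 138144 in fasted against 153462 and 201937 in fed ones without tetracycline, and 76012 and 385513 against 123959 and 123049 with it. In each table a single fasted library was above and the other below both fed ones, as in the enterocyte sums with tetracycline. All 13 cytosolic peptidases, which finish imported peptides, were tested and 0 were called, with medians of -0.10 and -0.06. Of the mitochondrial amino acid carriers with an adjusted p, 8 without and 7 with tetracycline, 0 were called, and the 8 found had medians of -0.21 and 0.02.

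Among 19 genes of amino acid catabolism, 1 was called higher and 1 lower without tetracycline and 0 with it, with medians of -0.19 and 0.19. Of all tested genes, 1.06% were called higher and 1.22% lower without tetracycline. Prodh, the first enzyme of proline breakdown, rose from 1767 and 1768 in fed to 3587 and 3270 in fasted libraries, a change of 0.96 (SE 0.25, adjusted p 0.0104 from the authors' deposited table). Oat, which links ornithine to proline and glutamate, fell from 76903 and 72465 in fed to 34919 and 43112 in fasted libraries, a change of -0.94 (SE 0.25, adjusted p 0.0149 from the authors' deposited table). For both genes the fasted and fed libraries did not overlap, which their calls on the same libraries make likely in advance. Of all genes, 21.4% lay above and 21.1% below in this way.

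Of 16 ATF4 targets, 5 were called higher and 0 lower without tetracycline (median 0.37), and 1 higher and 0 lower with it (median -0.04). The 5 were Chac1, Ddit4, Atf5, Nupr1 and Vldlr, and the 1 was Ddit4. Of all tested genes, 1.06% were called higher without and 0.333% with tetracycline. This list too was chosen with earlier results of these data known. Chac1, a glutathione-degrading enzyme, had 242 and 137 in fasted against 14.9 and 15.1 in fed ones without tetracycline, a change of 3.66 (SE 0.53, adjusted p 4.13e-09 from the authors' deposited table). With tetracycline it had 29.6 and 4.13 in fasted against 34.6 and 41.0 in fed ones. The difference between its changes was -4.79 (SE 1.17, adjusted Wald p 0.103). Ddit4, a stress-induced brake on mTORC1, had 3749 and 4360 in fasted against 1716 and 2134 in fed ones without tetracycline, and 6526 and 7161 in fasted against 1943 and 1924 in fed ones with it. Its changes were 1.07 (SE 0.27, adjusted p 0.00532) and 1.82 (SE 0.35, adjusted p 0.000142) in the authors' deposited tables. Among the members themselves, the known ATF4 targets Slc7a11, Slc7a5 and Slc3a2 were not called in either table.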

How the data were processed

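Per the labels' protocols, the library kit was non-directional. Salmon, DESeq2 and mm10 are named in the submitters' processing notes, without versions. The authors deposited 2 tables of fasted against fed crypts. Per the file headers, the authors' mean is a signal (the average of counts divided by size factors), fold changes and standard errors are in log2 units, the deposited statistic is a score (fold change over standard error), and the deposited p-values carry a Benjamini-Hochberg adjustment. A call is an adjusted p under 0.05.

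Whole counts per library were recovered from the deposited mean, and kept only where they gave back the deposited log2 fold change within 1e-09. This succeeded for 25504 of 25522 and 26060 of 26085 genes, and for all 35 members. Recovered genes held 84.03% and 81.59% of the summed mean. On simulated data, 300 of 300 genes per table were recovered. The match held only with the side of positive fold changes as reference of the fit. Libraries cannot be tied to labelled samples, so no count model was run; 0 per-sample columns were left unused.

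The difference of the changes was tested by a Wald test over 17571 genes. In simulation, with noise of the size of the standard errors, it called 89.0% of 200 differences of 3 log2 units. These were set among 13194 genes whose mean is 50 or more. The observed statistic had a robust spread of 0.714. Smaller differences were not simulated, so the power for differences such as those of the tested members is not known. Tetracycline levels used a pseudocount of 1. Members with an adjusted or unadjusted p under 0.05 in either table or the difference are given with every library's value, other members by range or by what shows their group; Slc15a1, Anpep, Slc36a1, Slc7a11 and Slc38a9 were shown after their values had been seen. List genes are named where called. One list, of membrane partners of the carriers, is not reported here. Members and lists were chosen with earlier results of these data known. Positions are from GENCODE M21 (GRCm38), to which 99.3% of gene identifiers without version matched, and promoters from RefSeq (GRCm38.p6). Python 3.11.15, numpy 2.4.6, pandas 2.3.3 and scipy 1.17.1 were used. Alternatives were other thresholds, pseudocounts, filters and scalings, and leaving out each library.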

Additional observations from a re-analysis of the deposited data

How the results depend on the processing

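At an adjusted p under 0.01, 0 members were called higher and 0 lower without tetracycline, so both calls ended; at 0.1 the count stayed at 1 in each direction. Set per summed enterocyte markers, chosen after seeing the data, the members' median change without tetracycline was 0.0034, and the members whose fasted libraries lay above both fed ones numbered 4 without and 11 with tetracycline in place of 10 and 5. Leaving out single libraries gave medians from 0.02 to 0.55 without and from -0.08 to 0.62 with tetracycline. It gave changes of Slc7a15 from 0.62 to 2.14 without and -0.69 to 2.33 with tetracycline, and of Slc6a14 from -5.68 to -2.93 without. These are changes of values, since no test could be refitted. Of 143 alternatives for single genes 31 moved by more than the standard error. Pseudocounts, filters and centring moved the medians by less than the spread between members. No paired analysis was possible because the labels give no replicate numbers. Low counts limit Slc6a14, Slc7a11, Slc38a3 and Slc43a3.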

Other observations

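Among 13171 genes whose mean is 50 or more, with recovered counts, in both tables, some libraries of different tables were more alike than those of the same side and table. Fed library 1 without and fed library 2 with tetracycline had a Spearman correlation across genes of 0.993, and the 2 fed libraries had 0.985 without and 0.971 with tetracycline. Fasted library 2 without and fasted library 1 with tetracycline had 0.988, and fasted library 1 without and fasted library 2 with tetracycline had 0.982. The 2 fasted libraries of the same table had 0.978 without and 0.945 with tetracycline. Some fasted libraries were also more like a fed library of their own table than like the other fasted one: fasted library 2 and fed library 1 without tetracycline had 0.981, and fasted library 1 with tetracycline had 0.972 with fed library 2 and 0.948 with fed library 1, and fasted library 2 with tetracycline had 0.964 with fed library 2. Fed library 2 without and fed library 1 with tetracycline had no such match: their highest values with a library of the other table were 0.980 and 0.9705, below the 0.985 and 0.9707 with the other fed library of their own table. Genes are not independent replicates, the libraries share an assay and a tissue, and these values carry no test.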
